A study of Mus musculus with 8 samples.

Results

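The nuclear-encoded subunits of the respiratory chain were followed in the livers of 8 mice. Members were all protein-coding genes whose symbols carry the names of subunits of NADH dehydrogenase (Nduf with a, b, c, s, v or ab and a number), succinate dehydrogenase (Sdha to Sdhd), the cytochrome bc1 complex (Uqcr and Cyc1), cytochrome c oxidase (Cox4 to Cox8 with a letter) or ATP synthase (Atp5). The rule took 86 of the 49585 genes in the count table, of which 36 encode subunits of complex I, 4 of complex II, 9 of complex III, 20 of complex IV and 17 of complex V. The rule itself uses no measured value, but it was chosen with earlier results of these data known. Of the 86 members, 80 passed the filter on low counts and were tested, and the 6 that did not, Cox4i2, Cox6a2, Cox6b2, Cox7b2, Cox8b and Cox8c, had at most 5 counts in any liver. Ndufa4 and its paralogue Ndufa4l2 carry complex I names and were counted with complex IV, to which the Ndufa4 protein belongs.

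The respiratory chain sits in the inner mitochondrial membrane and passes electrons from NADH, by complex I, and from succinate, by complex II, through ubiquinone, complex III and cytochrome c to oxygen at complex IV. Complexes I, III and IV pump protons, and complex V uses the resulting gradient to make ATP. The mitochondrial genome encodes the hydrophobic cores of every complex but complex II, and nuclear genes such as those described here encode the other subunits, which hepatocytes need in quantity for fatty acid oxidation, gluconeogenesis and urea synthesis.

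All 8 livers came from male mice kept on HFCD, a diet rich in fat and without choline, from 21 days of age for 3 months. Alb-Cre is a transgene that expresses Cre recombinase from the albumin promoter in hepatocytes and in cholangiocytes, so other cells of the liver keep their Trp53 alleles. The 2 LPfl/+ livers were Alb-CreTG, Trp53fl/+, with 1 Trp53 allele deleted, and the 3 LP245/+ livers were Alb-CreTG, Trp53wm-R245W/+, with 1 allele switched to the missense mutant R245W. The 3 LP+/+ livers were labelled Alb-Cre0, with an unrecombined Trp53fl/+ allele in replicates 1 and 2 and an unrecombined Trp53wm-R245W/+ allele in replicate 3, so they share the conditional alleles but not the transgene. The study's text also describes LP+/+ mice that carry Alb-Cre, and the labels were followed here. Total RNA of whole liver was sequenced, in which fewer cells of a type and less RNA per cell cannot be told apart.

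The count table held between 26304526 and 31370714 counts a liver. Trp53 itself lay between 202 and 258 normalized read counts in LP+/+, between 127 and 178 in LPfl/+ and between 193 and 316 in LP245/+, and in edgeR the log2 fold change of LPfl/+ to LP+/+ was -0.58 (adjusted p = 0.718). Normalized read counts are counts divided by a DESeq2 size factor. The 9 hepatocyte markers summed to between 3064370 and 4400544 normalized read counts and the 10 Kupffer cell and macrophage markers to between 8525 and 13305, and 5 of the 7 muscle markers (Acta1, Ckm, Tnnt3, Myh7, Mb) were at 3 counts or fewer in every liver. The library numbers fall in a first series, with the 3 LP245/+ livers and LP+/+ replicates 2 and 3, and a second series, with LP+/+ replicate 1 and both LPfl/+ livers, so no series holds both LPfl/+ and LP245/+.

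The stretches of DNA before 5 of the genes are shown first, 3 because these members have the smallest p of complexes V, I and IV in LP245/+ against LP+/+ (Atp5l, Ndufc1 and Cox6b1) and 2 because they hold copies of the palindromic core bound by nuclear respiratory factor 1 (Cox6a1 and Ndufb4), a factor known for binding such promoters. All are on the minus strand of GRCm38.p6, credited to RefSeq, are written 5′ to 3′ on the strand of the gene, begin 250 bases before the RefSeq start and end before the first GENCODE exon of the gene. They lie at chr9:44920743-44920992 for Atp5l, chr3:51408989-51409205 for Ndufc1, chr7:30626152-30626364 for Cox6b1, chr5:115348982-115349208 for Cox6a1 and chr16:37654454-37654618 for Ndufb4, and capitals mark the core, GCGCA and GCGC with any 1 base between them, or, in Atp5l, the ETS letters CCGGAAG as read on the other strand.
Atp5l: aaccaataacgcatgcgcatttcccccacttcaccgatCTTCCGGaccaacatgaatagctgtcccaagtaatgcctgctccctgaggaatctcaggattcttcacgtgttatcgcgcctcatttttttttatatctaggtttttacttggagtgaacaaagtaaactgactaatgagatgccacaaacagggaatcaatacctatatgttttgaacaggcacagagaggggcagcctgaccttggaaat
Ndufc1: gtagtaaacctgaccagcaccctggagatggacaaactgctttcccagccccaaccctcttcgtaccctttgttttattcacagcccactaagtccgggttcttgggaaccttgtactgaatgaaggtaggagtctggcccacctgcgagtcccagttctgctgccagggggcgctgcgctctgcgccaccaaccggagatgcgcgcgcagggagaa
Cox6b1: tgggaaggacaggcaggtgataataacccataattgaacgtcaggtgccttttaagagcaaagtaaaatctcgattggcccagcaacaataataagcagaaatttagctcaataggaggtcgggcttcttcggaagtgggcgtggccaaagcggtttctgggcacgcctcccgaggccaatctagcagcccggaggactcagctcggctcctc
Cox6a1: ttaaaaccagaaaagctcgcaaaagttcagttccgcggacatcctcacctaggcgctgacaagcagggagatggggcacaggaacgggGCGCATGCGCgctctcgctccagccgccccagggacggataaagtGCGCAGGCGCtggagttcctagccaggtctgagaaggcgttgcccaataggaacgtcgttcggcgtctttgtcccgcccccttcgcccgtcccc
Ndufb4: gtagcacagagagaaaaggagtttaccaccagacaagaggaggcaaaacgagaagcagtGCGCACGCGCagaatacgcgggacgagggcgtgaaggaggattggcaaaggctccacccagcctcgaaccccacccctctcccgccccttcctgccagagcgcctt

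Promoter windows of 300 bases, 250 before and 50 after the start, were used for 67 of the 86 members. Windows on chromosome 18 were left out, for members and for all windows alike. The nuclear respiratory factor 1 core was in 17 of the 67 (25.4%) and in 4.6% of all 32851 windows, reading both strands. The ETS letters CCGGAAG, bound by the GABP factor among others, were in 16 (23.9%) and in 8.86% of all windows, and the YY1 letters AAGATGGC in 9 (13.4%) and 2.75%. The estrogen-related receptor half-site AAGGTCA was in 8 members (11.9%) and in 4.72% of all windows, whereas the SP letters GGGCGG (40.3% and 35.7%) and CCAAT (43.3% and 37.4%) stood closer to all windows. Counted by window, over the 72 windows of these members, the shares in the same order were 25.0%, 22.2%, 12.5%, 11.1%, 38.9% and 41.7%. None of these motifs is part of another. The windows reach past the stretches printed above. There Ndufb4 held further cores, whose first bases are at -79 and -22 from the start. The ETS letters stood there at -28 in Cox6b1 and at -16 in Cox6a1. Member windows were also richer in G and C, with a median of 57.3% against 52.7%, and a match of letters is a description of the window only.

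Most members were well expressed in these livers. Of the 80 tested, 72 had a mean of at least 500 normalized read counts, beside 5877 of the 16496 genes tested. Together the 86 members took between 1.02% and 1.08% of the counts in 7 livers and 0.926% in LP245/+ replicate 2. Per kilobase of exon, the scale used here to compare levels between genes, Atp5b (the catalytic subunit of the F1 head of ATP synthase) was highest with 16970 normalized read counts per kb over the 8 livers, followed by Atp5a1 (its alpha subunit) with 12870. The lowest liver of Atp5b, at 14770, lay above the highest liver of Atp5a1, at 13710, so this pair kept its order in every liver. The next places belonged to complex IV, with Cox6c at 11030, Cox4i1 at 10310, Ndufa4 at 9945 and Cox6b1 at 9702, and the ranges of these 4 over the livers overlapped.

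**Figure D1:**
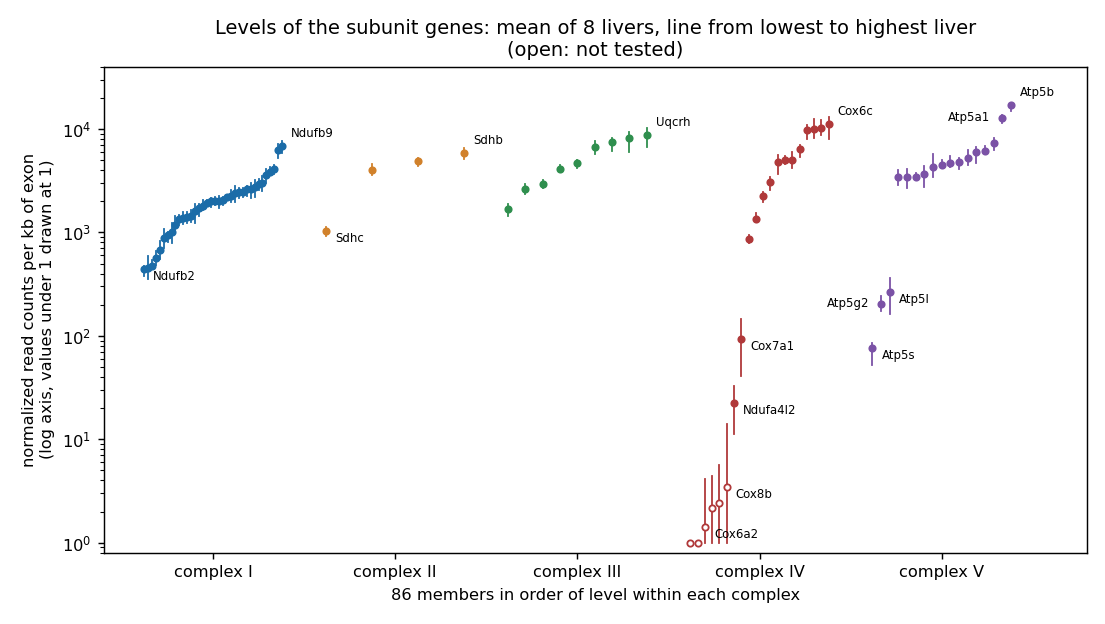
Normalized read counts per kb of exon (log axis) for the 86 members, ordered by level within each complex. Points are means of the 8 livers, lines run from the lowest to the highest liver, open points were not tested, and values under 1 are drawn at 1. Complexes I to III stay between 438 (Ndufb2) and 8683 (Uqcrh) per kb, while complexes IV and V also hold members below 300.

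Levels also differed between subunits of the same complex. In complex I the 36 members spanned 15.7-fold, from Ndufb2 at 438 per kb to Ndufb9 at 6904, both accessory subunits of its membrane arm, with a median of 2010. Medians of the other complexes were higher, at 4460 for complex II, 4680 for complex III, 4870 for complex IV and 4510 for complex V. In complex II the 4 subunits ran from Sdhc, a membrane anchor, at 1020 to Sdhb, the iron-sulfur subunit, at 5845. Among the 14 members of complex V with a mean of at least 500 normalized read counts the span was 4.95-fold, and Atp5l, Atp5g2 and Atp5s lay below them. The exon length was that of 1 transcript a gene, so a level per kb depends on which transcript is used.

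Complex IV comes in tissue versions, and the liver used those known from liver. Cox6a1, the liver version of subunit 6a, had between 2999 and 4162 counts, and its heart and muscle version Cox6a2 at most 3. Cox8a had between 2476 and 3189 counts, the muscle version Cox8b at most 5, and the testis version Cox8c 0 in every liver. Cox4i1 had between 6490 and 8983 counts against at most 4 of Cox4i2, known from lung. Cox6b1 had between 4910 and 7051 against at most 2 of Cox6b2, and Cox7b between 3648 and 5861 against 0 of Cox7b2, both testis versions. A count of 0 allows up to 3 counts, or at most 1.14e-05% of a library, and covers counting error only.

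The muscle version of subunit 7a was the exception among these. Cox7a1 had between 16 and 60 counts and made up 1.25% of its family per kb, beside 68.1% of Cox7a2, the liver version, and 30.7% of Cox7a2l, a related protein that joins complexes III and IV. Ndufa4l2, which cells induce under low oxygen, had between 11 and 30 counts, 0.225% of the sum with Ndufa4. The rotor ring of ATP synthase is built of 1 protein, subunit c, that comes from 3 genes, and Atp5g3 held 56.6% of their sum per kb, Atp5g1 41.5% and Atp5g2 1.88%. The last figures are uncertain, because 59.3% of the 76-base stretches of the Atp5g1 transcript and 100% of those of Atp5g2 also occur in other genes.

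Sequence shared with other genes bears on several counts. Of the 86 members, 28 share at least one 76-base stretch with another annotated gene, mostly processed pseudogenes, and in 4 the share is over 50% (Atp5g2, Atp5l at 63.3%, Atp5g1 and Cox7c at 50.3%). Per the study's methods STAR aligned the reads with its default settings and also counted them per gene, and the gene counts of STAR take only reads with a single alignment. Atp5l had between 92 and 197 counts and shares sequence with 8 other genes, of which not all were read. Among the pseudogenes read, Gm10221 had the most counts, between 13 and 28.

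Among livers of 1 genotype the members varied little. The median SD of a member within genotypes was 0.122 on the log2 scale, against 0.222 over all genes tested, and in members with at least 500 normalized read counts it was 0.12 against 0.141 for all such genes. The steadiest were Uqcrc1, a structural protein of complex III, with an SD of 0.0381, and Ndufa11, a membrane subunit of complex I, with 0.0382. The widest of the abundant members were Cox6c, a small subunit of complex IV, at 0.278 and Atp5k, subunit e of ATP synthase, at 0.265.

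The first comparison asked whether R245W in hepatocytes, beside a normal allele, goes with another level of the chain. In LP245/+ compared with LP+/+, 0 of the 80 members tested passed the cutoff, a log2 fold change of 1 or more in size with an adjusted p no higher than 0.05. The test was the quasi-likelihood test of edgeR with Benjamini-Hochberg adjustment over 16496 genes, of which 0.00606% passed. The smallest adjusted p of a member was 0.795. At an unadjusted p below 0.05 it gave 2 members, 2.5% beside 5.93% of all genes. They were Atp5l, higher (1.25% of members beside 3.55% of all genes), and Ndufc1, lower (1.25% beside 2.38%). DESeq2, with 84 members and 30212 genes tested, gave 0 members past the cutoff beside 10 genes in all, and 3 members at an unadjusted p below 0.05 beside 2.7% of all genes. The 95% intervals of 77 of the 80 lay within 1.5-fold in either direction, the exceptions being Atp5l, Cox7a1 and Ndufa4l2, all under 200 normalized read counts in every liver.

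The signs leaned to one side by small amounts. The fitted log2 fold change was below 0 in 62 of 80 members (77.5%, beside 49.4% of all genes), with a median of -0.06 beside 0.00 for all genes. By complex the median was -0.07 in complex I, where 30 of 36 were below 0, -0.03 in complex II, -0.08 in complex III, -0.05 in complex IV and -0.04 in complex V. Livers of LP245/+ lay wholly below those of LP+/+ in 9 members (11.2%, beside 5.79% of all genes) and wholly above in 1 (1.25%, beside 6.03%). Within the first library series alone the median difference was -0.10, with 69 members lower.

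This lean was not shared by the 3 LP245/+ livers. LP245/+ replicate 2 held the lowest value of 51 of the 80 members, beside 11.0% of all genes, and LP245/+ replicate 3 the highest of 36, beside 16.7% of all genes. As medians over the members of the log2 difference from the LP+/+ mean, the LP245/+ livers lay at -0.07, -0.23 and 0.09, the LPfl/+ livers at -0.06 and -0.09 and the LP+/+ livers at -0.05, 0.00 and 0.07. Without LP245/+ replicate 2 the median fold change was 0.00, with 40 members below 0 and 40 above. Without replicate 3 it was -0.15, with 76 below 0, and 16 of 80 members had an unadjusted p below 0.05, beside 7.76% of all genes, while 0 passed the cutoff and the smallest adjusted p was 0.63.

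**Figure D2:**
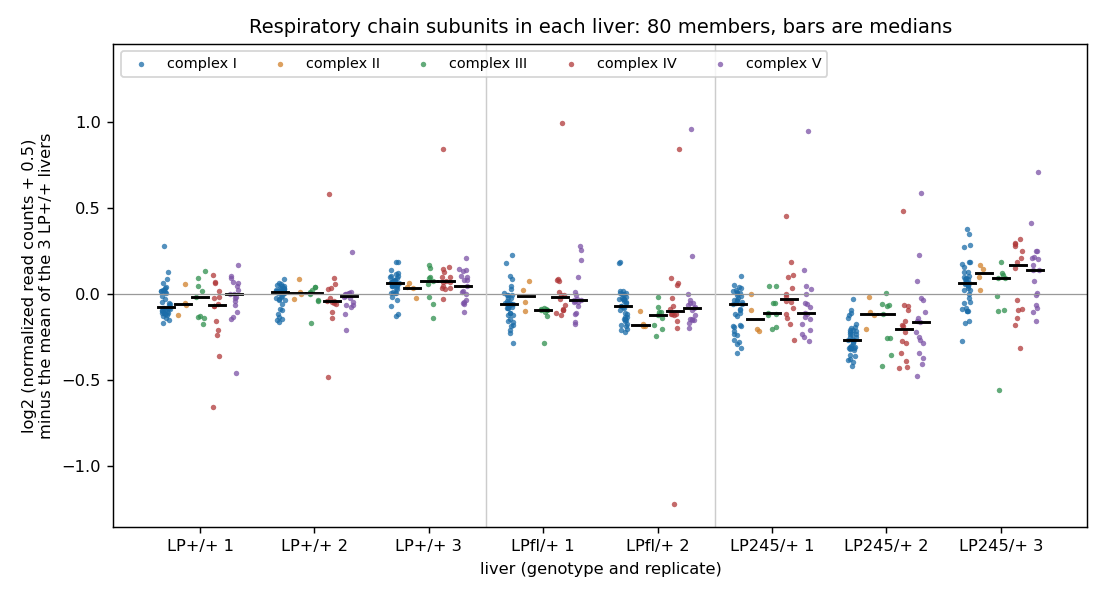
Each point is 1 of the 80 members tested, as log2 (normalized read counts + 0.5) minus its mean over the 3 LP+/+ livers, by liver and coloured by complex, with a bar at the median of each complex. LP245/+ replicate 2 has all 5 medians below 0, from -0.26 (complex I) to -0.11, and LP245/+ replicate 3 has all 5 above 0, from 0.06 to 0.17, and over all members these livers have the lowest and the highest median (-0.23 and 0.09).

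Values of other gene sets in these livers were as follows. The 79 cytosolic ribosomal protein genes tested had medians of -0.29 in LP245/+ replicate 2 and 0.22 in replicate 3, the 77 mitochondrial ribosomal protein genes -0.17 and 0.06, and 435 other protein-coding genes with under 800 bases of exon -0.17 and 0.09. Members under 800 bases had a median of -0.25 in LP245/+ replicate 2 and -0.04 in replicate 1, and members of 1400 bases or more -0.13 and -0.20, so the long members were lowest in another liver than the short ones. The part of message length in the values of replicates 2 and 3 was not tested. In the fit of LP245/+ to LP+/+, 56 of the 77 mitochondrial ribosomal protein genes were below 0, with a median of -0.05. Of the 79 cytosolic ones 39 were below 0, with a median of 0.00. In LPfl/+ against LP+/+, 53 and 23 of these genes were below 0, with medians of -0.04 and 0.04.

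Complex I takes electrons from NADH, and 7 of its nuclear subunits form the catalytic core. All 7 core subunits had log2 fold changes below 0 in LP245/+ against LP+/+, the lowest at -0.15, and none had an unadjusted p below 0.05. Ndufs1, the largest iron-sulfur subunit, had 3408, 3595 and 3705 normalized read counts in the LP+/+ livers, 3424 and 3255 in the LPfl/+ livers and 3073, 3340 and 3807 in the LP245/+ livers. The LP245/+ livers enclosed all others, and the log2 fold change was -0.06 ± 0.11 (SE). Ndufv1, which binds NADH, had 4467, 4311 and 4242 in the LP+/+ livers, 4109 and 3751 in the LPfl/+ livers and 3556, 3646 and 4414 in the LP245/+ livers. Only LP245/+ replicate 3 reached the LP+/+ livers, and the log2 fold change was -0.15 with a 95% interval from -0.40 to 0.09.

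The accessory subunits of complex I held 2 of the members with a small p. Ndufc1, a small membrane subunit on chromosome 3 (51404677 to 51408988), had 826, 690 and 761 normalized read counts in the LP+/+ livers, 726 and 690 in the LPfl/+ livers and 630, 608 and 673 in the LP245/+ livers. Every LP245/+ liver was below every other liver, and the log2 fold change to LP+/+ was -0.24 ± 0.10 (adjusted p = 0.806 in edgeR). The difference was -0.18 with the library series as a covariate. Within the series Ndufc1 was at -0.19 for LP245/+ and -0.22 for LPfl/+, each against the LP+/+ livers of that series. In the second series that is LP+/+ replicate 1 alone. Its promoter stretch above holds neither set of letters.

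Ndufa12, an accessory subunit on chromosome 10 (94198720 to 94221443), had 926, 681 and 703 normalized read counts in the LP+/+ livers, 863 and 869 in the LPfl/+ livers and 674, 613 and 631 in the LP245/+ livers. The values split by library series: the 3 livers of the second series were above all 5 of the first, which held for this 1 member of 80 and for 5.09% of all genes. The LP245/+ livers were also below every other liver, while LPfl/+ lay within the range of LP+/+. Between LP245/+ and LPfl/+, which no series holds together, its log2 fold change was -0.44 ± 0.14 (adjusted p = 0.428 in edgeR), and -0.01 with the library series as a covariate. Within the series it was -0.11 for LP245/+ and -0.10 for LPfl/+, each against the LP+/+ livers of that series.

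Complex II feeds electrons from succinate and has no mitochondrial gene. Sdha, its flavin subunit, had 14213, 14826 and 15099 normalized read counts in the LP+/+ livers, 14932 and 12920 in the LPfl/+ livers and 12669, 14535 and 14948 in the LP245/+ livers. Sdhb had 6495, 6766 and 7081, then 6558 and 6338, then 6772, 5890 and 7505. The genotypes overlapped in both, and the log2 fold changes of all 4 subunits to LP+/+ lay between -0.06 and 0.00 in LP245/+ and between -0.13 and -0.04 in LPfl/+. The 95% intervals of all 4 stayed between -0.40 and 0.26 in these comparisons.

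Complex III passes electrons from ubiquinol to cytochrome c. Uqcrfs1, the Rieske iron-sulfur protein, had 3346, 3793 and 3951 normalized read counts in the LP+/+ livers, 3483 and 3200 in the LPfl/+ livers and 3560, 3409 and 3982 in the LP245/+ livers. Cyc1, cytochrome c1, had 2853, 2602 and 2359, then 2438 and 2191, then 2500, 2485 and 2822. Both overlapped between LP245/+ and LP+/+, with log2 fold changes of -0.01 and 0.01. Uqcrc1, the steadiest member, had 6995, 6909 and 7383 in the LP+/+ livers, 6646 and 6446 in the LPfl/+ livers and 6536, 6752 and 6618 in the LP245/+ livers. All 5 livers with a recombined allele were below the 3 LP+/+ livers. Taken alone, LP245/+ lay wholly below LP+/+ in 5.79% of all genes, and LPfl/+ in 13.2%. The log2 fold change of Uqcrc1 was -0.09 ± 0.09 in LP245/+ and -0.11 ± 0.11 in LPfl/+, and neither differed beyond its error (adjusted p = 0.911 and adjusted p = 0.858 in edgeR).

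The 7 subunits of complex III without a redox group, Uqcrc1 among them, had log2 fold changes from -0.17 to -0.03 in LP245/+. Uqcr10, a small subunit beside cytochrome c1, had the smallest p of the complex, with 2189, 2168 and 2134 in the LP+/+ livers, 1984 and 1912 in the LPfl/+ livers and 2006, 1816 and 2027 in the LP245/+ livers. The fitted log2 fold change was -0.14 ± 0.09 in LP245/+ and -0.14 ± 0.10 in LPfl/+, with adjusted p = 0.839 and adjusted p = 0.792. Neither recombined group overlapped LP+/+. Uqcrq, a ubiquinone-binding subunit, had its lowest liver in LP245/+ replicate 3, where 36 members were at their highest, with 2424 normalized read counts against 3682 and 3587 in the other two.

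Complex IV reduces oxygen, and its nuclear subunits surround a core of mitochondrial origin. Cox4i1 had 7529, 7771 and 8454 normalized read counts in the LP+/+ livers, 7412 and 7295 in the LPfl/+ livers and 7286, 6558 and 9139 in the LP245/+ livers. LP245/+ held both the lowest and the highest liver, with a log2 fold change of -0.04 ± 0.13. Cox5a, which with Cox4i1 joins the core early in assembly, had 982, 825 and 928, then 836 and 868, then 884, 868 and 825. Cox6b1, on the intermembrane face (chromosome 7, 30616861 to 30626151), had the smallest p of the complex in LP245/+, with 6812, 6317 and 6363 in the LP+/+ livers, 6356 and 5666 in the LPfl/+ livers and 5399, 4961 and 6091 in the LP245/+ livers. The 3 LP245/+ livers were below the LP+/+ livers and overlapped LPfl/+, at a log2 fold change to LP+/+ of -0.23 ± 0.11 (adjusted p = 0.831 in edgeR).

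The scarce members of the complex had wide intervals. Ndufa4l2 had 11.6, 10.6 and 27.3 normalized read counts in the LP+/+ livers, 30.4 and 27.3 in the LPfl/+ livers and 20.7, 21.2 and 18.3 in the LP245/+ livers, and its log2 fold change in LPfl/+ was 0.81 with a 95% interval from -0.13 to 1.74. Cox7a1 had 24.2, 57.6 and 40.5, then 35.5 and 16.2, then 37.2, 34.4 and 45.8, with a log2 fold change of -0.65 and an interval from -1.61 to 0.31. Both overlapped between LPfl/+ and LP+/+, and each interval included no change and reached past 2-fold on the side of its fold change.

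**Figure D3:**
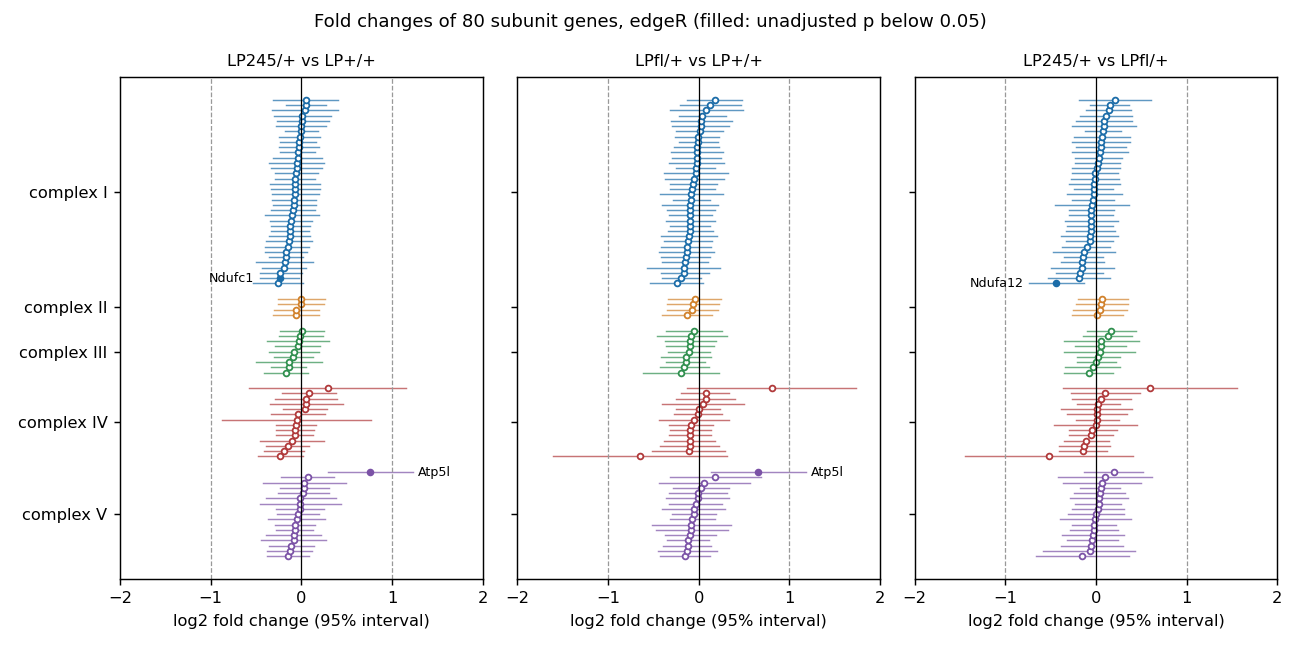
Log2 fold changes (points) with 95% intervals (lines) of the 80 members in the 3 comparisons, sorted within each complex, from edgeR's fit of all 8 livers. Filled points have an unadjusted p below 0.05 and are named, dashed lines mark the fold change of the cutoff, and 0 members passed it with an adjusted p of at most 0.05.

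Complex V makes ATP. Its F1 head is built of Atp5a1 and Atp5b, the most abundant members. Atp5a1 had 33861, 33875 and 33789 normalized read counts in the LP+/+ livers, 32240 and 29527 in the LPfl/+ livers and 28428, 30276 and 32360 in the LP245/+ livers. The LP+/+ mean was 33840 ± 46.5 (SD, n = 3), and every other liver was below these 3. Members wholly below LP+/+ made up 11.2% in LP245/+ (5.79% of all genes) and 26.2% in LPfl/+ (13.2%), and Atp5a1 is in both. The log2 fold change was -0.15 ± 0.11 in LP245/+ and -0.12 ± 0.12 in LPfl/+, and neither passed the test (adjusted p = 0.851 and adjusted p = 0.853 in edgeR). Atp5b had 34259, 34007 and 34448, then 33133 and 30947, then 28297, 30738 and 34318, so that LP245/+ replicate 3 lay among the LP+/+ livers. Atp5e, the smallest subunit of the stalk, had the smallest p of the complex between LP245/+ and LPfl/+, with a log2 fold change of 0.20 ± 0.14.

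Atp5l, subunit g of the membrane part of ATP synthase (chromosome 9, 44912557 to 44920742, minus strand), was the member with the smallest p in both comparisons with LP+/+. It had 107, 88.4 and 113 normalized read counts in the LP+/+ livers, 124 and 199 in the LPfl/+ livers and 197, 154 and 167 in the LP245/+ livers. Every liver with a recombined allele was above every LP+/+ liver. Taken alone, LP245/+ lay wholly above LP+/+ in 1.25% of members beside 6.03% of all genes, and LPfl/+ in 2.5% beside 11.9%. The share of genes with both at once was not counted. Compared with LP+/+ it was 1.69-fold in LP245/+ (adjusted p = 0.795) and 1.58-fold in LPfl/+ (adjusted p = 0.697 in edgeR), and the 95% intervals of the log2 fold changes ran from 0.29 to 1.23 and from 0.14 to 1.18. Both values use the same 3 LP+/+ livers.

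The direction of Atp5l in LP245/+ held with each liver left out in turn, at log2 fold changes from 0.64 to 0.83, and within the first library series at 0.78. In LPfl/+ it rested on replicate 2, without which it was 0.26. Its level was 264 normalized read counts per kb, beside 205 for Atp5g2 and at least 3430 for the other 9 genes of the membrane part. Of its transcript, 63.3% is shared with other genes, and those read were pseudogenes. The part of shared reads in the difference was not tested. The stretch printed above holds 1 ETS match, whose first base is at position -212 from the start.

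**Figure D4:**
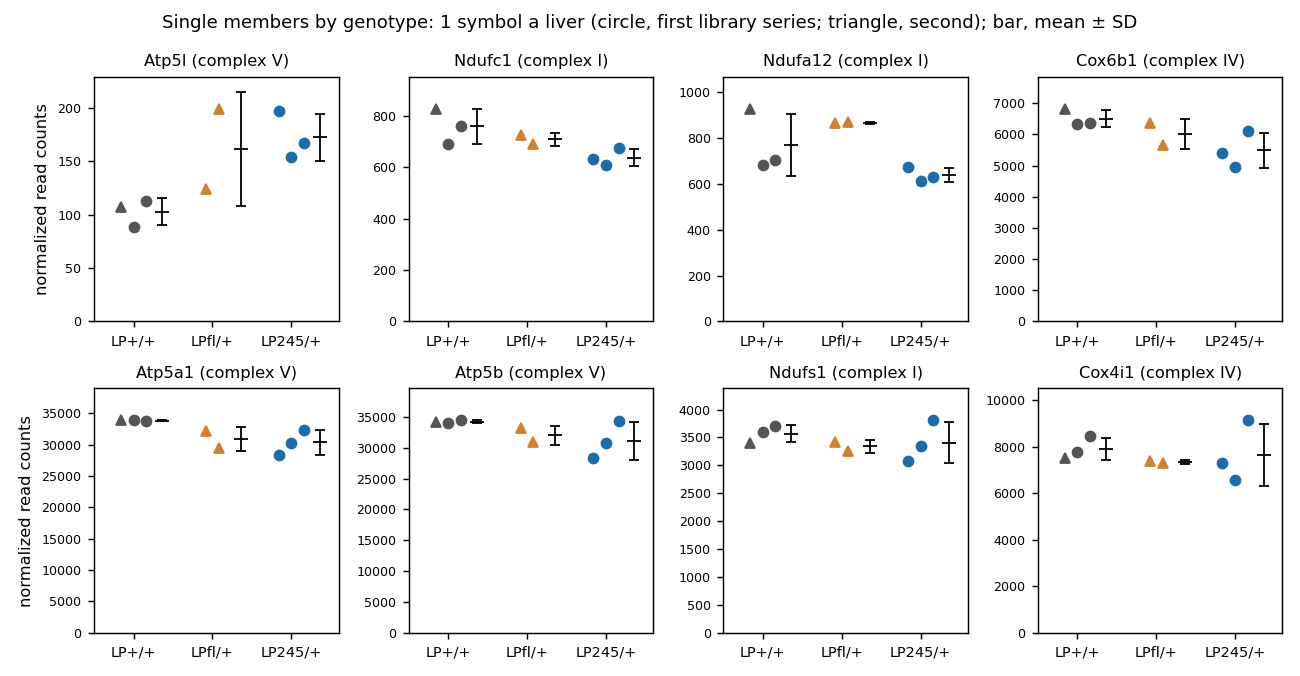
Normalized read counts of 8 members by genotype, 1 symbol for each liver (circles for the first library series, triangles for the second) with the mean ± SD beside them. Atp5l is above the LP+/+ livers in all 5 other livers, Ndufa12 is high in the 3 triangles, and the 3 LP+/+ livers of Atp5a1 nearly coincide above the rest.

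The second comparison asked the same of the loss of 1 allele. In LPfl/+ compared with LP+/+, 0 of 80 members passed the cutoff, beside 0.0% of all genes, and the smallest adjusted p of a member was 0.697. At an unadjusted p below 0.05 the edgeR test gave only Atp5l, 1.25% of members beside 6.89% of all genes (higher in 4.22% and lower in 2.67%), and DESeq2 gave 1 member beside 3.13% of all genes. The log2 fold change was below 0 in 65 members (81.2%, beside 50.2% of all genes), with a median of -0.08 beside 0.00. Medians were -0.08 in complex I, -0.07 in complex II, -0.11 in complex III, -0.07 in complex IV and -0.05 in complex V, and all 9 members of complex III were below 0. The LPfl/+ livers lay wholly below the LP+/+ livers in 21 members (26.2%, beside 13.2% of all genes) and wholly above in 2 (2.5%, beside 11.9%).

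On library totals in place of TMM factors 45 members were below 0 and 35 above, with a median of -0.01 beside 0.06 for all genes, so the signs moved with the scale while the members stayed below all genes. The lean was smaller within the library series. Against LP+/+ replicate 1, the only LP+/+ liver of its own series, the median was -0.03 and 52 members were lower, and LP+/+ replicate 1 itself was -0.08 from the other two LP+/+ livers. The member with the smallest p after Atp5l was Ndufs8, an iron-sulfur subunit of complex I, with 1997, 2095 and 2147 in the LP+/+ livers, 1799 and 1832 in the LPfl/+ livers and 2049, 1891 and 2076 in the LP245/+ livers. The LPfl/+ livers were the lowest of all, by a log2 fold change of -0.19 ± 0.10 to LP+/+.

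The third comparison set the mutant against the deletion. In LP245/+ compared with LPfl/+, 0 of 80 members passed the cutoff, beside 0.0% of all genes, the smallest adjusted p of a member was 0.428, and Ndufa12 was the only member with an unadjusted p below 0.05 in edgeR (1.25% beside 8.51% of all genes, of which 4.07% were higher and 4.44% lower). DESeq2 also gave 1 member, beside 4.11% of all genes. The log2 fold change was below 0 in 39 members (48.8%, beside 49.2% of all genes), with a median of 0.00. On library totals 67 were below 0 and 13 above, with a median of -0.07 that all genes shared. The 95% intervals of 78 members lay within 2-fold in either direction.

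Genes that serve the chain were read from lists. Of 45 assembly factors tested, which insert cofactors and join subunits, 27 were below 0 in LP245/+ and 29 in LPfl/+ compared with LP+/+, with medians of -0.04 and -0.05. At an unadjusted p below 0.05, edgeR gave 1 of the 45 in LP245/+ (beside 5.93% of all genes) and 2 in LPfl/+ (beside 6.89%). They were Ndufaf1, a complex I assembly factor, at -0.22 ± 0.09 in LP245/+, and Ndufaf7 at -0.31 ± 0.12 and Cox15, which makes heme a for complex IV, at -0.24 ± 0.10 in LPfl/+. Of 16 genes of electron carriers and ubiquinone synthesis, 12 and 15 were below 0, with medians of -0.11 and -0.18. Coq7, a hydroxylase of ubiquinone synthesis, had 510, 618 and 561 normalized read counts in the LP+/+ livers, 474 and 459 in the LPfl/+ livers and 472, 418 and 469 in the LP245/+ livers, with a log2 fold change of -0.30 ± 0.10 in LP245/+ (adjusted p = 0.795 in edgeR). All 5 livers with a recombined allele were below the LP+/+ livers, where 5.79% of all genes lay wholly below in LP245/+ alone and 13.2% in LPfl/+ alone.

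Coq10b, a ubiquinone-binding protein, had 550, 521 and 441 in the LP+/+ livers, 484 and 342 in the LPfl/+ livers and 789, 530 and 841 in the LP245/+ livers. LP245/+ replicate 2 overlapped LP+/+, and the other two LP245/+ livers were the highest. Its log2 fold change was 0.53 ± 0.19 to LP+/+ and 0.80 ± 0.21 to LPfl/+ (adjusted p = 0.795 and adjusted p = 0.376 in edgeR). Of the 14 genes of the TCA cycle, 12 were below 0 in LP245/+ and 13 in LPfl/+, both with a median of -0.06 and none with an unadjusted p below 0.05. The 7 tested genes of ATP export, uncoupling and inhibition of ATP synthase were below 0 in 7 and 6, with medians of -0.08 and -0.14.

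Of the 18 regulators of mitochondrial genes 5 were below 0 in LP245/+, with a median of 0.08, and 11 in LPfl/+, with a median of -0.04. Between LP245/+ and LPfl/+, 2 of the 18 had an unadjusted p below 0.05 in edgeR, beside 8.51% of all genes. They were Esrrg, an estrogen-related receptor, at 1.15 ± 0.42 and Ppara, the receptor that drives fatty acid oxidation, at 0.39 ± 0.15 (adjusted p = 0.508 and adjusted p = 0.525). In both, the 3 livers of the second library series were below all 5 of the first, as in 4.49% of all genes. No series holds LP245/+ and LPfl/+ together. Esrrg had between 24.2 and 76.5 normalized read counts, and Ppara had 4525, 6305 and 5646 in the LP+/+ livers, 4366 and 4718 in the LPfl/+ livers and 5664, 6022 and 6127 in the LP245/+ livers. In each of these lists 0 genes passed the cutoff in any of the 3 comparisons.

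The partners of the members that the mitochondrial genome encodes had medians of 0.13 in LP245/+ and 0.03 in LPfl/+ compared with LP+/+ over 11 tested genes, of which 2 and 4 were below 0, and took between 2.15% and 3.13% of the counts. Their levels could not be set beside those of the members, because mt-Co1 had between 554982 and 663588 counts while mt-Co2 and mt-Co3, subunits of the same enzyme, had between 59 and 162 and between 114 and 399.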

How the data were processed

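RNA-seq of 8 livers was analysed (3 LP+/+, 2 LPfl/+, 3 LP245/+). The authors deposited raw read counts per gene, made with STAR on GRCm38 per the submitters' processing notes from stranded total RNA libraries. No column was left unmatched. Symbols came from GENCODE M21, in which 87 identifiers fit the rule, 1 of them not in the table used here.

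All livers were fitted together with edgeR 4.0.16 (R 4.3.3; TMM, filterByExpr, quasi-likelihood F test), with Benjamini-Hochberg adjustment over 16496 genes and the cutoff of the study. DESeq2 1.42.0 gave size factors and an alternative test. Levels per kb used the exons of the principal transcript. Log2 values per liver used a pseudocount of 0.5. Livers are separate animals, and no replicate pair agreed within counting error. On simulated counts the fit was tested beforehand for LP245/+ against LP+/+ only. Named members were those past the cutoff, the smallest p of each complex and comparison, and non-overlapping members with an unadjusted p below 0.05. Fixed catalytic subunits, isoform families and the ends of the level order were named too. Others were named after their values were seen (Ndufa11, Ndufb2, Ndufb4, Ndufb9, Uqcrh, Uqcrq, Atp5k, Cox7c). The ribosomal protein list left out Rps6k kinases and names of pseudogenes. The values of 1 of the fixed catalytic subunits are not reported here. Members and lists were chosen with earlier results of these data known. Alternatives covered tool, scaling, filter, groups fitted, library series, replicate block and each liver left out. Figures were drawn with matplotlib 3.10.9.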

Additional observations from a re-analysis of the deposited data

How the results depend on the processing

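Under the 17 alternatives to each comparison, 0 members passed the cutoff throughout, and the smallest adjusted p of any member was 0.276 for LP245/+ against LP+/+, 0.268 for LPfl/+ against LP+/+ and 0.124 for LP245/+ against LPfl/+. The number with an unadjusted p below 0.05 moved. For LP245/+ against LP+/+ it was 2, 4 on library totals (beside 5.27% of all genes), 1 without the filter on low counts (4.82%), and 1 to 16 with livers left out (3.87% to 7.76%), the 16 without LP245/+ replicate 3. For LPfl/+ against LP+/+ it was 1, 2 with only these groups fitted (7.36%), and 0 to 4 with livers left out (4.3% to 11.7%), the 4 without LP+/+ replicate 1, 2 without LP+/+ replicate 3, LPfl/+ replicate 1 or LP245/+ replicate 3, and 0 without LP+/+ replicate 2 or LPfl/+ replicate 2. For LP245/+ against LPfl/+ it was 1, 3 on library totals (8.41%), and 1 to 3 with livers left out (6.45% to 10.8%), the 3 without LP245/+ replicate 2 or 3. The median of the members ranged from -0.15 to 0.00, from -0.10 to -0.01 and from -0.08 to 0.06. With the library series as a covariate the medians were -0.09, -0.02 and -0.06, and Ndufa12 in LPfl/+ compared with LP+/+ went from 0.18 to -0.09. The causes were not tested.

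The replicate block gave medians of -0.07, -0.02 and -0.05 and 2, 1 and 1 members with an unadjusted p below 0.05 (5.36%, 6.0% and 7.25% of all genes), with 64, 45 and 60 of 80 members below 0, and changed no call past the cutoff. Livers with the same number correlated between -0.08 and 0.03 in their deviations from the group means. With groups of 2 to 3 livers these deviations are tied to each other, so the correlations cannot decide whether livers were paired. Neither labels nor methods pair animals by number. The 95% intervals of 74 to 77 of the 80 members lay within 1.5-fold in either direction, those of Atp5l, Cox7a1 and Ndufa4l2 reached past it in each comparison, and those of Uqcrq, Atp5s, Ndufa12 and Ndufb4 in 1 or 2.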
